A study of Saccharomyces cerevisiae with 71 samples.

Results

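The cytosolic tRNAs for phenylalanine and tyrosine were followed through every depletion of the series with the array probes Phe-3 and Tyr-3, which are the only probes named for these amino acids among the 41 on the array. The rule took them by name, but they were proposed with earlier results of these data known. Charging (aminoacylation) was measured in budding yeast of the prototrophic wild-type strain, WY798, and of an isogenic strain, WY799, whose GCN2 gene is disrupted by URA3 (gcn2::URA3, written gcn2Δ). Both strains are MATα derivatives of 1 parent made prototrophic for uracil, leucine and tryptophan, and both were shifted in mid-log growth from synthetic complete medium into medium lacking the named amino acids for 15 or 60 min. The media lacked Trp, Arg, His, or Trp, Phe and Tyr together (called WYF below), or lacked Arg and carried ornithine (Arg+Orn). A Leu depletion, sampled at 5, 45 and 120 min, is described apart because the direction of part of its arrays is not settled. The word culture stands for the sample of 1 strain in 1 medium at 1 time, of which there were 20 after depletion outside the Leu experiment. Both times of a strain and medium share a reference and may stem from the same flask, so neither an SD over the 4 cultures of a medium nor a count of 4 against 16 need be over independent samples. Of the 20 cultures, 4 were in WYF medium and 16 were in media that kept both Phe and Tyr.

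Phenylalanine, tyrosine and tryptophan are all made from chorismate. The entry reaction of that route is carried out by the DAHP synthases Aro3p, which is inhibited by phenylalanine, and Aro4p, which is inhibited by tyrosine, so that a supply of either amino acid slows the path that also leads to tryptophan. Cytosolic tRNAPhe is charged by phenylalanyl-tRNA synthetase (Frs1p and Frs2p) and tRNATyr by tyrosyl-tRNA synthetase (Tys1p). Gcn2p binds uncharged tRNA and phosphorylates eIF2, which raises translation of GCN4, the activator of many amino acid biosynthetic genes.

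Each deposited value is a linear ratio: the charged share of a tRNA after depletion divided by that in the reference culture with matching strain, experiment and dye orientation, scaled so that the median of the 41 probes is about 1. A ratio of 1 is therefore no change relative to the median tRNA, and an equal change of all tRNAs could not be seen. All 22 reference charging arrays hold exactly 1 for each probe, so they carry no spread, and the strains cannot be compared before depletion. E. coli tRNATyr and tRNAPhe were added to the RNA as standards, and whether the yeast probes Tyr-3 and Phe-3 can also bind them is not stated and was not tested. Ratios are given as deposited for single arrays, and differences are given on the log2 scale after centring each array on its median and averaging the arrays of a culture. Of the 20 cultures, 14 were hybridised in both dye orientations and 6 on a single array. The 4 Trp arrays with total tRNA in Cy5 were turned (ratio inverted) because their Trp-3 values, 1.90, 1.41, 2.14 and 14.4, were above 1 where the Cy3 partners gave 0.507, 0.911, 0.525 and 0.0709. That these arrays hold the inverse ratio is likely but is not stated in the labels.

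Without Trp, Phe and Tyr in the medium, charging of tRNAPhe was lower than in every other medium, in both strains and at both times. In the wild-type strain the Phe-3 ratio was 0.636 at 15 min and 0.669 at 60 min, each from 1 array. In the gcn2Δ strain it was 0.760 at 15 min from 1 array, and 0.687 and 0.643 at 60 min on the dye-swapped pair. All 5 arrays thus lay between 0.636 and 0.760, and the 2 orientations of the only culture measured in both were close to each other. On the log2 scale the 4 cultures were at -0.65, -0.58, -0.40 and -0.59, which corresponds to 1.57, 1.49, 1.32 and 1.504-fold less charging than the reference. Phe-3 was the lowest of all 41 probes in the wild-type culture at 15 min and in the gcn2Δ culture at 60 min, and the probe of rank 6 from the lowest in the others.

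In the 16 cultures that kept phenylalanine, Phe-3 lay between -0.17 and 0.58 with a median of 0.08. The lowest of these was the wild-type culture without His at 15 min, and no value overlapped with those in WYF medium. Phe-3 was the only probe of the 41 (2.44%) whose 4 WYF values lay below all 16 others, and no probe had all 4 above. By medium, the mean over the 4 cultures was -0.55 ± 0.11 (SD, n = 4) in WYF medium, 0.08 ± 0.22 without His, 0.12 ± 0.23 without Arg, 0.17 ± 0.27 in Arg+Orn medium and 0.19 ± 0.17 without Trp. The last 4 means lie within 1 SD of each other, so their order is not resolved.

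The question of how far tRNAPhe departed from its level in Phe-containing media was put to a limma fit over all 41 probes, with strain as a term and 2 WYF cultures against 8 at each time. At 15 min the means were -0.52 and 0.11, and Phe-3 was lower by 0.63 on the log2 scale (difference -0.63, SE 0.13, 95% interval -0.92 to -0.34, limma adjusted p = 0.0291). It was the only probe called of 41 (2.44%), where a call is an adjusted p under 0.05. At 60 min the means were -0.58 and 0.18, with a difference of -0.76 (SE 0.16, interval -1.13 to -0.39). Its limma adjusted p of 0.0504 was the smallest of the 41 and just missed the threshold, so that 0% of probes were called, with 3 at an unadjusted p under 0.05. The fold difference at 60 min was 1.69 (interval 1.31 to 2.19), against 1.55 (1.27 to 1.89) at 15 min.

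With the times averaged for each strain and medium, Phe-3 was again the only probe called (2.44%), at a difference of -0.70 (SE 0.12, interval -0.96 to -0.43, limma adjusted p = 0.00982). An exact two-sided permutation test over the 10 cultures gave p = 0.0222 for Phe-3 at each time and for the mean, which is the smallest that 2 against 8 allows and which 2 of the 41 probes (4.88%) reached in each case, and 0.456, 0.405 and 0.304 after Benjamini-Hochberg adjustment over the 41 probes for 15 min, 60 min and the mean. The WYF cultures all come from 1 experiment, so experiment and medium cannot be told apart, and with experiments as units (1 against 4) an exact test cannot fall below 0.2. Each fit also rests on both WYF cultures: without the wild-type culture the adjusted p for Phe-3 at 15 min was 0.550 and without the gcn2Δ culture 0.340, at differences of -0.60 and -0.66.

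**Figure D1:**
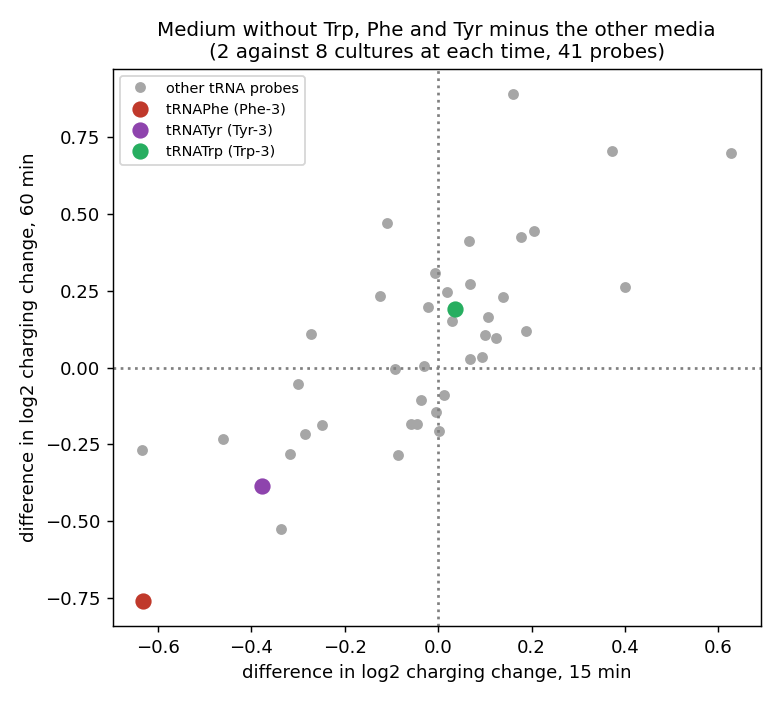
Difference in log2 charging change between WYF medium and the other media at 15 min (horizontal axis) and 60 min (vertical axis), 1 point for each of the 41 probes, from 2 against 8 cultures at each time. tRNAPhe lies at -0.63 and -0.76, tRNATyr at -0.38 and -0.39, and tRNATrp at 0.04 and 0.19. For tRNATrp the other media include the cultures without Trp. Its WYF means, -0.15 and -0.23, were below those of the 6 cultures that kept Trp, 0.07 and 0.13.

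Charging of tRNATyr was below the reference in all 4 WYF cultures, but its values were more scattered and overlapped those of Tyr-containing media. Among the 41 probes, Phe-3, Asn-3, Asp-3, Pro-6, Sec-2 and Ser-10 were also below 0 in all 4, so this is not particular to Tyr-3. The wild-type Tyr-3 ratio was 0.835 at 15 min and 0.512 at 60 min. In the gcn2Δ strain it was 0.640 at 15 min, where Tyr-3 was the lowest of the 41 probes, and at 60 min it was 0.754 on the Cy3 array and 1.03 on the Cy5 array. The last array was the only one of the 5 that was not below 1, and the 2 orientations of that culture differed by 0.45 on the log2 scale. The means of the cultures were -0.26, -0.96, -0.64 and -0.18, and 8 of the 16 cultures with tyrosine in the medium had a value below the highest of these.

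Where tyrosine was kept, Tyr-3 ranged from -0.82 in the gcn2Δ culture without Arg at 15 min to 0.55 in the wild-type culture without His at 15 min, with a median of -0.17. By medium, the means were -0.51 ± 0.36 (SD, n = 4) in WYF medium, -0.28 ± 0.55 without Arg, -0.23 ± 0.14 without Trp, -0.01 ± 0.41 without His and 0.00 ± 0.32 in Arg+Orn medium. WYF medium was again lowest, but each neighbouring pair in this order differed by less than the larger of its SDs.

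The tRNATyr difference between WYF and other media was -0.38 at 15 min (SE 0.29, interval -1.02 to 0.27, limma adjusted p = 0.732), and at 60 min it was -0.39 (SE 0.24, interval -0.94 to 0.17, limma adjusted p = 0.421). For the mean of the times it was -0.38 (interval -0.87 to 0.11, limma adjusted p = 0.381), and -0.08 without the wild-type or -0.68 without the gcn2Δ WYF cultures. None of these passed the threshold, and the intervals reach from a change as large as that of tRNAPhe to a small change in the other direction. The 60-min value depended on the strain: without the gcn2Δ WYF culture the difference was -1.001 (limma adjusted p = 0.00774), and without the wild-type WYF culture it was 0.23. The first of these rests on the wild-type culture at 60 min, a single array with no dye swap.

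Whether the WYF response differed between the strains was tested on the strain differences (gcn2Δ minus wild type), with WYF against the other 4 experiments. At 60 min tRNATyr was 0.78 higher in gcn2Δ than in wild type in WYF medium, while the mean of the other 4 media was -0.45, a difference of 1.23 (interval 0.34 to 2.11). Its unadjusted limma p was 0.0178 and its adjusted p was 0.104, with 0 of 41 probes called (0%) and 10 at an unadjusted p under 0.05. The WYF arm is a single strain difference, assumed to vary like the other 4, and its wild-type side has no dye-swapped partner array. At 15 min the same contrast was -0.03 (limma adjusted p = 0.984), so the 2 times do not show the same pattern. For tRNAPhe the contrast was 0.06 (interval -0.73 to 0.85) at 15 min and -0.19 (interval -1.28 to 0.89) at 60 min. Those intervals are too wide to tell whether the strains responded alike.

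Removing Phe and Tyr in addition to Trp was compared directly with removing Trp alone, in a fit with all 5 media as terms. Without Trp alone, Phe-3 was at 0.28 and 0.38 in wild type and at 0.13 and -0.01 in gcn2Δ at 15 and 60 min. WYF minus Trp was -0.73 at 15 min (interval -1.16 to -0.29, limma adjusted p = 0.111) and -0.77 at 60 min (interval -1.36 to -0.18, limma adjusted p = 0.459). Without the wild-type Trp culture the differences were -0.50 and -0.44, and without the gcn2Δ Trp culture -0.95 and -1.11. Neither passed the threshold, although Phe-3 had the most negative difference of the 41 probes at both times and was lower in WYF medium in both strains. For Tyr-3 the difference was -0.18 (interval -0.997 to 0.64) at 15 min and -0.38 (interval -1.32 to 0.56) at 60 min. At the later time the gcn2Δ value was higher in WYF medium than without Trp (-0.18 against -0.35).

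tRNATrp, the tRNA of the third aromatic amino acid, differed the other way between these media. Trp-3 was at -0.95 and -0.31 in wild type and at -1.02 and -3.83 in gcn2Δ at 15 and 60 min without Trp alone. In WYF medium, which lacks Trp as well, it was at -0.23 and 0.00 in wild type and at -0.08 and -0.46 in gcn2Δ. The difference was 0.83 at 15 min (interval 0.48 to 1.18, limma adjusted p = 0.0302), the only call among the 41 probes (2.44%), and 1.84 at 60 min (interval -0.52 to 4.21, limma adjusted p = 0.507; 0% called), where the gcn2Δ culture supplied most of the difference. The Trp Cy5 arrays were turned on account of their Trp-3 values, which fixed the direction of Trp-3 on them, and at 15 min 0 tRNAs were called on the Cy3 arrays alone or with those arrays as deposited. Among the 3 aromatic tRNAs, WYF against all other media called 1 lower (Phe-3) and 0 higher at 15 min and 0 at 60 min, with median differences of -0.38 and -0.39 beside -0.0037 and 0.10 over all 41 probes. With 3 probes in the list, each of its medians is the Tyr-3 difference, which was not called, and shows no shift of the group. For Trp-3 the other media in that comparison include the cultures without Trp. The Trp-3 mean in WYF medium was -0.15 at 15 min and -0.23 at 60 min. In the 6 cultures that kept Trp it was 0.07 and 0.13, and that contrast was not tested. In each of the 4 strain and time pairs Phe-3 was lower and Trp-3 higher in WYF medium than in medium lacking Trp alone.

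**Figure D2:**
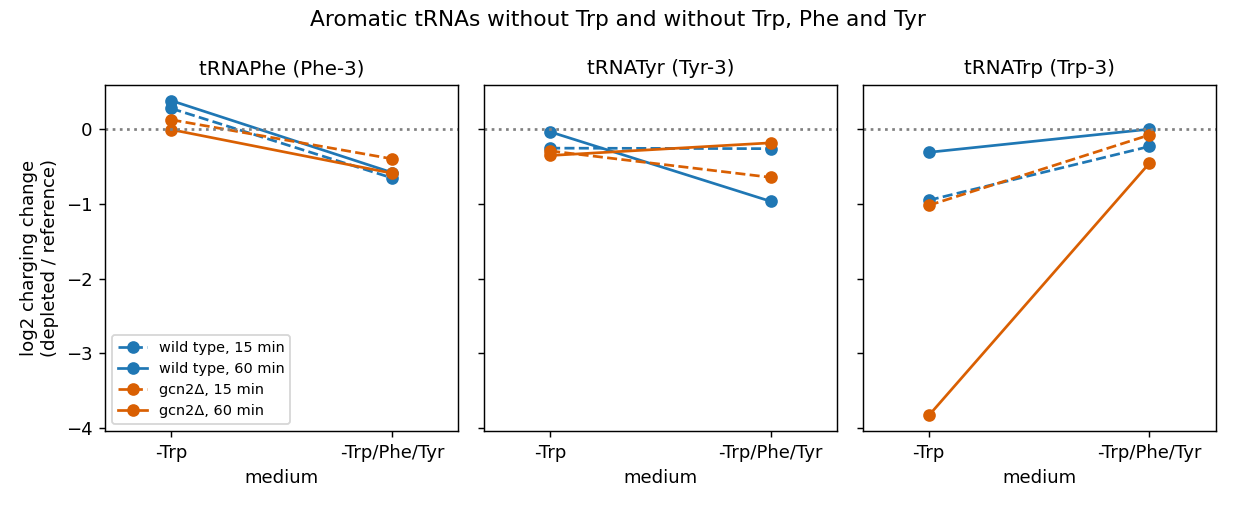
Log2 charging change of the 3 aromatic tRNAs in medium without Trp (left of each panel) and without Trp, Phe and Tyr (right), with a line for each strain and time and a point for each culture. tRNAPhe goes from between -0.01 and 0.38 to between -0.65 and -0.40, and tRNATrp goes from as low as -3.83 to no lower than -0.46, while the lines of tRNATyr cross.

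Depletion of Trp alone left tRNAPhe and tRNATyr without a detectable change relative to the other media that keep both amino acids (2 cultures against 6). The difference for Phe-3 was 0.12 (interval -0.21 to 0.46) at 15 min and 0.02 (interval -0.42 to 0.46) at 60 min, and for Tyr-3 it was -0.26 (interval -1.01 to 0.49) and -0.01 (interval -0.35 to 0.34), with limma adjusted p between 0.784 and 0.997. The cognate Trp-3 was the only probe called, at 15 min (-1.06, limma adjusted p = 0.00402, 2.44% of probes), with 0 called when the turned arrays were used as deposited, and at 60 min 0% were called although its difference was -2.20 (limma adjusted p = 0.778). On the Cy3 arrays alone the differences from the other media were larger, at 0.25 and 0.27 for Phe-3 and -0.43 and -0.40 for Tyr-3 at 15 and 60 min. None passed the threshold (limma adjusted p = 0.444 at 15 min and 0.571 at 60 min for both). The size of the Phe-3 value depended on the dye: on the Cy3 arrays the wild-type ratios were 1.33 at 15 min and 1.43 at 60 min, the highest of all 41 probes both times, and the gcn2Δ ratios were 1.26 and 1.16. On the Cy5 arrays as deposited they were 0.906 and 0.845 in wild type and 1.05 and 1.17 in gcn2Δ. Turning these arrays gives the wild-type pairs the same direction, and the gcn2Δ pairs opposite directions, for Phe-3.

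In media that kept both amino acids the 2 tRNAs leaned apart in the gcn2Δ strain. Phe-3 was above 0 in 7 of 8 gcn2Δ cultures (median 0.25) and Tyr-3 below 0 in 7 of 8 (median -0.33), so that Phe-3 minus Tyr-3 was positive in 7 of 8 with a median of 0.58. In wild type each was above 0 in 4 of 8 cultures, with medians of 0.00. Where gcn2Δ cultures had both orientations, Phe-3 minus Tyr-3 was positive on both arrays without Arg at both times and without His at 15 min. Its sign differed between the Cy3 and Cy5 arrays without Trp, at 0.92 and -0.09 (15 min) and at 0.91 and -0.22 (60 min). It also differed at 60 min without His (1.05 and -0.003) and in Arg+Orn medium (-0.24 and 2.00). The strain difference over the 5 media was not past the threshold for either tRNA. For Phe-3 it was 0.21 (interval -0.07 to 0.48) at 15 min and 0.15 (interval -0.23 to 0.52) at 60 min. For Tyr-3 it was -0.36 (interval -0.88 to 0.16) at 15 min and -0.20 (interval -0.80 to 0.39) at 60 min, with values below 0 in 4 of 5 media at each time. Leaving out 1 medium gave 0.14 to 0.30 and 0.04 to 0.28 for Phe-3 at 15 and 60 min, lowest at 60 min without Arg+Orn and highest without Trp. For Tyr-3 it gave -0.57 (without Arg+Orn) to -0.21 (without Arg) at 15 min and -0.45 (without WYF) to -0.020 (without Arg) at 60 min. The limma adjusted p was 0.756 at 15 min and 0.893 at 60 min for both, with 0% of probes called, and the exact two-sided sign-flip permutation test with 5 differences cannot go below 0.0625.

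The lowest Tyr-3 culture means outside WYF medium came from the gcn2Δ strain without Arg. Its ratios there were 0.527 and 0.607 at 15 min and 0.602 and 0.634 at 60 min on the Cy3 and Cy5 arrays, whereas the wild-type strain in the same medium gave 1.11 and 1.12 at 15 min and 1.31 and 1.05 at 60 min. All 4 gcn2Δ arrays were below all 4 wild-type arrays. The arrays of each strain are dye-swapped pairs at 15 and 60 min with a shared reference, so they are not 4 independent samples. Tyr-3 had the rank 6 or 7 from the lowest on these gcn2Δ arrays, so other probes were lower on each. How many other probes separated the strains in this medium was not counted. Against the Trp and His cultures of both strains at the same time (1 culture against 4, no strain term) Tyr-3 in the gcn2Δ culture differed by -0.54 at 60 min (interval -1.04 to -0.03, limma adjusted p = 0.324) and the difference at 15 min was -0.74 (interval -1.70 to 0.23, limma adjusted p = 0.482, 0% of probes called). At 60 min the probes called were the 4 of the cognate tRNAArg (9.76%), of which Arg-10, Arg-9 and Arg-11 were lower by 10.8, 8.25 and 7.96-fold. Phe-3 in the same cultures differed by 0.22 and 0.12 at 15 and 60 min, with intervals that include 0 (-0.33 to 0.78 and -0.38 to 0.63). With 1 culture in an arm, that culture is assumed to vary like the other 4. Against only the gcn2Δ Trp and His cultures, an alternative chosen after seeing the data, the Tyr-3 difference was -0.50 at 15 min and -0.37 at 60 min (limma adjusted p = 0.100 and 0.470).

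**Figure D3:**
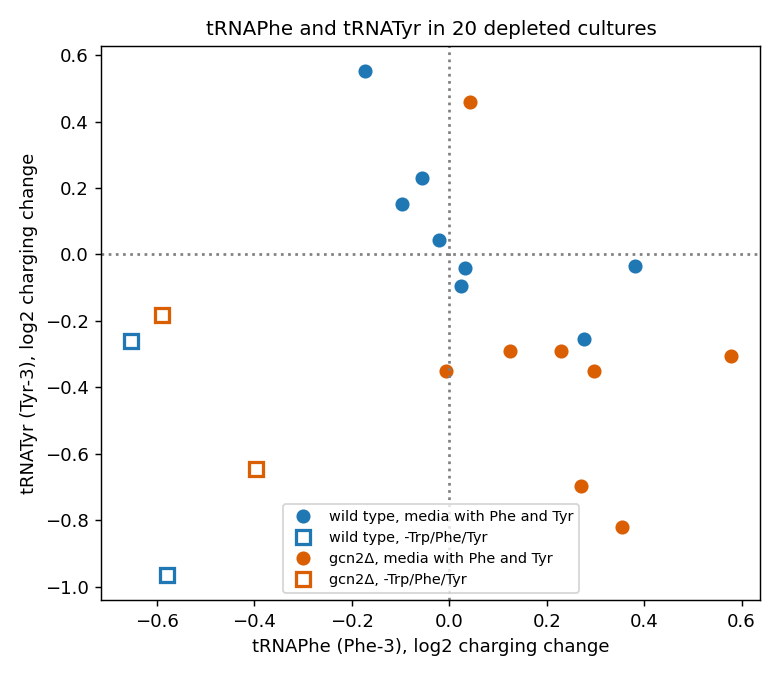
Log2 charging change of tRNATyr (vertical axis) against tRNAPhe (horizontal axis) in the 20 depleted cultures, in blue for wild type and orange for gcn2Δ, with open squares for WYF medium. The WYF cultures are the 4 at the left edge, and in the other media the gcn2Δ cultures lie mostly to the lower right.

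Across the 16 cultures that kept both amino acids the Pearson correlation of Phe-3 with Tyr-3 was -0.66, and across all 20 it was 0.02. These values are a description only. Cultures of the same strain and experiment share a reference, and each array's values are centred on a shared median. By orientation, the correlation was -0.19 over the 20 Cy3 arrays and -0.64 over the 14 Cy5 arrays. Every WYF culture is among the Cy3 arrays, but only the gcn2Δ WYF culture at 60 min is among the Cy5 arrays. The sets thus differ in media as well as in dye. Over the 20 cultures the patterns most like that of Phe-3 were those of Leu-11 (0.55), Gly-6 (0.53) and Sec-2 (0.46), and the least like was Arg-9 (-0.52). Those most like Tyr-3 were Asp-3 (0.83), Lys-4 (0.76) and Ser-8 (0.74), and the least like was Leu-12 (-0.79). The partners depend on the cultures: over the 16 that kept both amino acids they were Thr-8 (0.81), Thr-7 (0.75) and Val-8 (0.75) for Phe-3 and Lys-4 (0.92), Asp-3 (0.83) and Gln-4 (0.82) for Tyr-3.

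Both probes varied more than the median probe, and part of that variation lay between the 2 dye orientations of the same RNA. The SD over the 20 cultures was 0.34 for Phe-3 and 0.39 for Tyr-3, compared with a median of 0.19 over the 41 probes. The SD between the orientations of a culture was 0.28 for Phe-3 and 0.38 for Tyr-3, against a median of 0.20, and Tyr-3 had the rank 5 from the highest of the 41 probes by this measure. In 12 of the 14 cultures with both orientations, the Cy5 minus Cy3 difference had opposite signs for the 2 probes, and in 8 of the 10 whose arrays were not turned. In the gcn2Δ cultures without His, for example, Phe-3 was the highest and Tyr-3 the lowest of the 41 probes on the Cy3 arrays at both times (ratios 1.42 and 0.644 at 15 min, 1.37 and 0.663 at 60 min), while the Cy5 arrays gave 1.06 and 0.954, and 1.01 and 1.01. In the gcn2Δ culture in Arg+Orn medium at 60 min the order was the other way round: the Cy3 array gave 1.01 for Phe-3 and 1.19 for Tyr-3, and the Cy5 array gave 2.21 and 0.552. The highest Phe-3 culture value of the series, 0.58, thus rests on 1 array. The part of the dye in the difference between gcn2Δ and wild type was not tested.

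**Figure D4:**
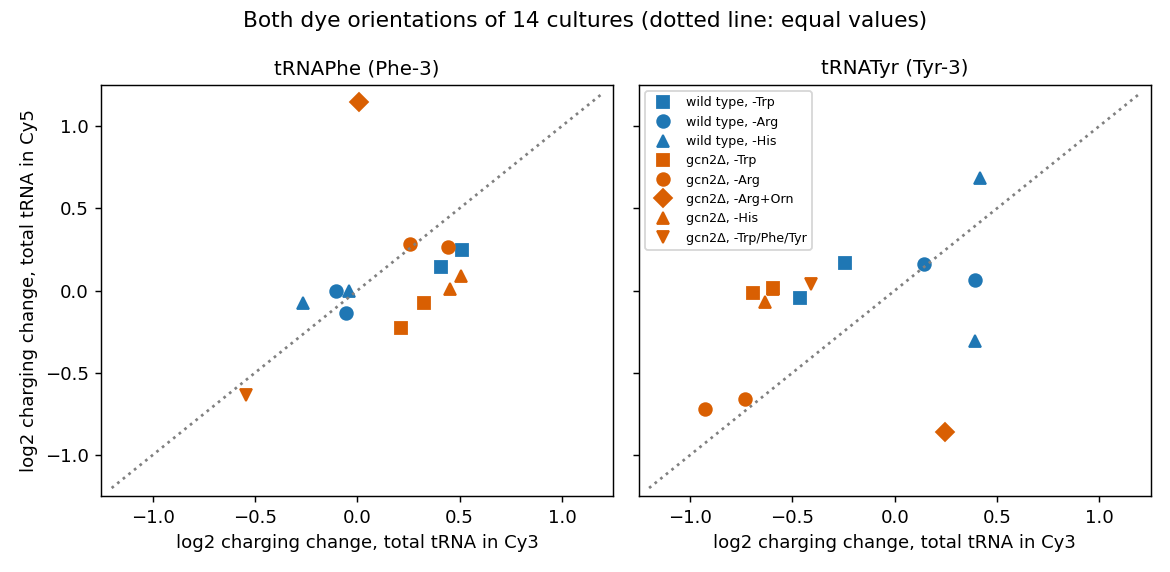
Log2 charging change on the Cy5 array (vertical axis) against the Cy3 array (horizontal axis) of the 14 cultures measured in both orientations, for tRNAPhe (left) and tRNATyr (right), with the dotted line at equal values. The gcn2Δ culture in Arg+Orn medium at 60 min lies farthest from the line in both panels, and the gcn2Δ culture in WYF medium lies near the line for tRNAPhe but 0.45 above it for tRNATyr.

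Abundance of the tRNAs themselves was measured in 1 gcn2Δ culture after 60 min without Trp against its reference, on a dye-swapped pair of arrays. The Phe-3 ratio was 1.07 and 0.958 and the Tyr-3 ratio 1.09 and 1.14, with means of 1.01 and 1.11, if both arrays hold depleted over reference, which the labels do not state. If the array with the depleted culture in Cy3 holds the inverse, its ratios become 1.04 and 0.877 and the means 1.06 and 0.976, so no direction is given for Tyr-3. tRNATrp gave 0.792 and 0.832 as deposited, and the latter lies above 1 if turned (mean 0.976). There is no replicate culture and no abundance array for WYF medium, where the charging of tRNAPhe was lowest.

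In the Leu experiment the culture means over 6 cultures, with arrays as deposited, lay between -0.13 and 0.07 for Phe-3 and between -0.18 and 0.23 for Tyr-3. With the Cy5 arrays turned they lay between 0.01 and 0.19 for Phe-3 and between -0.29 and 0.28 for Tyr-3. On the Tyr-3 probe the 2 orientations disagreed in direction in the wild-type cultures, for example with ratios of 0.842 and 1.26 at 45 min, so no direction is given.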

How the data were processed

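Cells were extracted at acidic pH to keep the ester bond, and the RNA was divided. One portion was oxidised with periodate, which blocks uncharged tRNA from labelling, and the other was left untreated to give total tRNA. After deacylation the portions were ligated to Cy3 or Cy5 oligonucleotides and hybridised together. Per the labels, E. coli tRNALys, tRNATyr and tRNAPhe standards were mixed into the RNA before deacylation, and neither how they entered the values nor whether the yeast probes bind them is given in the sources used here. The authors deposited a ratio for each of 41 probes on 71 arrays (68 of charging and 3 of abundance), relative to the reference culture and scaled to a median of about 1 (array medians 0.995 to 1.01), so shifts shared by most tRNAs are removed. Scanner signal and background are not given in the sources used here, and the number of arrays limits the precision. The files name probes by amino acid and number only, and do not pair them with tRNA genes, so no sequence or position is given.

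Log2 of each ratio was taken without a pseudocount, arrays were centred on their median, the 4 Cy5 arrays of depleted cultures in the Trp experiment were turned, and arrays of the same culture were averaged to give 1 replicate (Python 3.11.15, pandas 2.3.3). Each of 13 comparisons was fitted over all 41 probes using limma 3.58.1 (lmFit, eBayes; R 4.3.3), with Benjamini-Hochberg adjustment and a call at an adjusted p under 0.05, after a check on simulated data. Exact permutation tests were two-sided. The labels do not say that time points came from separate flasks, so p-values measure the spread between these cultures. Probes named are Phe-3, Tyr-3 and Trp-3 in every comparison, the 3 most and the 1 least correlated with each of Phe-3 and Tyr-3, and the probes called (the 3 with the largest change where more than 3 were). Alternatives were the centring, the direction of the Trp Cy5 arrays, Cy3 arrays alone, the variance moderation, the strain term, each strain alone, the Leu cultures and leaving out each culture. Experiment as a random block, experiment means and, for the Arg comparison, gcn2Δ comparison cultures alone were added after seeing the data. The tRNAs, lists and tests were chosen with earlier results of these data known.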

Additional observations from a re-analysis of the deposited data

Results flagged for a closer look

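In medium without Arg and in medium without His, both gcn2Δ cultures and both wild-type cultures lay on opposite sides of 0 for both probes, which is why these values are listed. Averaged over 15 and 60 min, gcn2Δ minus wild type for tRNAPhe was 0.39 without Arg and 0.36 without His. For tRNATyr the same difference was -0.95 without Arg and -0.62 without His. These differences were not tested within a medium, which has 1 culture for each strain and time. The wild-type values nearest to 0 were -0.02 for Phe-3 and 0.04 for Tyr-3, both without His at 60 min, and the Tyr-3 value there is the mean of 0.39 on the Cy3 array and -0.30 on the Cy5 array. The gcn2Δ Cy5 array without His at 60 min gave 0.007 for Phe-3 and 0.011 for Tyr-3. For Tyr-3 that is opposite in sign to the mean of its culture, -0.29. In the Arg medium the orientations of each culture had the same direction for Tyr-3. No culture stood apart by Dixon's test in the 4 groups of 8 cultures (each probe at each time, both strains together, in media that kept both amino acids).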

How the results depend on the processing

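For 26 differences, 346 of 400 alternative values kept their direction and side of the threshold, and for 13 counts of tRNAs called, 143 of 200 lay within 1.5 times the main count. The tRNAPhe difference between WYF and other media kept its direction in every alternative run, between -0.86 and -0.66 at 60 min and between -0.70 and -0.59 at 15 min, but its call did not. The cause of each change below was not tested.

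At 60 min Phe-3 passed the threshold with centring on the 10% trimmed mean (-0.78), with the Trp Cy5 arrays as deposited (-0.76), with a trended variance prior, without the strain term and with experiment as a random block (-0.76 in each), in the wild-type cultures alone (-0.66), without the Trp experiment (-0.76), and with the Leu cultures added as deposited (-0.69) or with their Cy5 arrays turned (-0.72), at limma adjusted p between 0.000635 and 0.0471. The tRNAs called were then 1 with trimmed centring, the Trp arrays as deposited, no Trp experiment or the Leu cultures, 2 with the trended prior, no strain term or the random block, and 11 in wild type alone. The random block rests on a negative estimated correlation (-0.19), and on the means of experiments Phe-3 at 60 min did not pass (limma adjusted p = 0.0580). At 15 min Phe-3 lost its call with trimmed centring (-0.59), on Cy3 arrays only (-0.70), without the strain term (-0.63), in wild type alone (-0.66), in gcn2Δ alone (-0.60) and on the means of experiments (-0.63), with 0 tRNAs called in each. For the mean of the times it lost the call on Cy3 arrays only (-0.72), in wild type alone (-0.66) and in gcn2Δ alone (-0.73), with 0 called, and the trended prior called 2. For Tyr-3 at 60 min the wild-type cultures alone gave -1.001, past the threshold, and the gcn2Δ cultures alone 0.23, reversed.

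WYF minus Trp for Phe-3 passed the threshold at 60 min with the trended prior (-0.77) and at 15 min in a fit of only the 4 cultures of these media (-0.73). The tRNAs called at 60 min were then 2 and 1 respectively. At 15 min they were 3 with only the 4 cultures, 2 with trimmed centring, and 0 on Cy3 arrays only, with the Trp arrays as deposited and with the trended prior. Trp against other media called 1 tRNA at 60 min on the means of experiments, and 0 at 15 min on those means or with the Trp arrays as deposited. The strain difference in WYF medium at 60 min called 3 with the trended prior, and the gcn2Δ Arg culture at 15 min 2 with the WYF cultures added or against gcn2Δ cultures only, which also called 2 at 60 min in place of 4. Differences near 0 reversed for Phe-3 in Trp against other media at 60 min with trimmed centring (-0.015), in the gcn2Δ Arg culture at 60 min on Cy3 arrays (-0.030) and in the strain difference in WYF medium at 15 min on Cy3 arrays (-0.045), and for Tyr-3 in WYF minus Trp at 15 min on Cy3 arrays (0.077) and in the strain difference in WYF medium at 15 min with trimmed centring (0.014) or Cy3 arrays (0.056).

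Leaving out each culture in turn gave Phe-3 differences between WYF and other media of -0.66 to -0.59 at 15 min, -0.86 to -0.66 at 60 min and -0.73 to -0.65 for the mean. The 15-min call was lost without the wild-type Arg+Orn, Arg or WYF culture or the gcn2Δ His, Trp or WYF culture, the 60-min call was gained without the gcn2Δ Arg+Orn or Trp culture, and the call for the mean was lost without either WYF culture. For Tyr-3 the range was -0.68 to -0.08 for the mean and -1.001 to 0.23 at 60 min, the ends being without the gcn2Δ and without the wild-type WYF culture. WYF minus Trp for Phe-3 was -1.11 to -0.44 at 60 min and -0.95 to -0.50 at 15 min, and for Tyr-3 it was -0.99 to 0.23 at 60 min and -0.38 to 0.021 at 15 min. Trp against other media was -0.37 to 0.40 at 60 min and -0.11 to 0.36 at 15 min for Phe-3, and -0.095 to 0.079 at 60 min for Tyr-3. The strain difference in WYF medium at 15 min was -0.055 to 0.15 for Phe-3 and -0.24 to 0.255 for Tyr-3. The tRNAs called were 0 to 5 at 60 min, 0 to 1 at 15 min and 0 to 1 for the mean in WYF against other media, 0 to 1 at both times in WYF minus Trp, 0 to 1 at 60 min and 0 to 2 at 15 min in Trp against other media, and 0 to 3 in the gcn2Δ Arg culture at 15 min.

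The labels carry no replicate numbers, so no replicate block was fitted, and the strain differences pair the strains by medium and time. Signal over background is unknown, each condition is 1 culture, and the wild-type WYF cultures have no dye swap.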
